A study of Mus musculus with 24 samples.

Results

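Moesin, ezrin and radixin, the products of Msn, Ezr and Rdx, form the ERM family of proteins that tie the plasma membrane to the actin cortex. They are described here together with merlin (Nf2), their closest relative, and NHERF1 (Slc9a3r1), the scaffold that binds them under the membrane. The 5 genes were matched by symbol among the 41388 genes of the deposited tables, and all 5 passed the filter on low counts that left 16757 genes for testing. Liver RNA was sequenced in a factorial design of genotype and feeding. Knockout mice were labelled KO and carried a liver-specific deletion of alanine transaminase 2 (Gpt2). Control mice were labelled fl/fl, the floxed gene without that deletion, and the series text calls the controls WT. Mice of each genotype were fasted for 18 h or fed ad libitum. The Cre driver, strain and age were not given in the sources used here. The knockout fasted and the knockout fed groups held 6 libraries each, and the control fasted and the control fed groups held 5 usable libraries each of the 6 deposited. Whether each library stands for its own mouse was not stated, so every p-value is one over libraries, whose spread may be partly technical. The set was chosen by symbol around Msn, which had been selected on its measured difference between genotypes in these libraries, and the other 4 were added as its relatives.

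In an ERM protein an amino-terminal FERM domain binds membrane lipids and the tails of membrane proteins, and a carboxy-terminal segment binds actin filaments. The protein is folded shut until membrane phosphoinositides and phosphorylation of a conserved threonine near its end open it. In mouse liver radixin is the main ERM protein of hepatocytes and lies at the bile canaliculus, ezrin is found in bile duct epithelium, and moesin is typical of endothelium and of cells of blood origin. Merlin shares the FERM domain, restrains growth through the Hippo pathway and lacks the actin-binding tail of the ERM proteins. NHERF1 carries a pair of PDZ domains that hold transporters and receptors, and its tail binds the ERM FERM domain.

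The family resemblance is shown by the coding stretch around the regulatory threonine, whose codon is in capitals, from the GENCODE M21 transcripts on GRCm38. The stretch of Msn lies at chrX:96166542-96166604 on the plus strand, that of Ezr at chr17:6739333-6739395 on the minus strand and that of Rdx at chr9:52086387-52086449 on the plus strand.
Msn: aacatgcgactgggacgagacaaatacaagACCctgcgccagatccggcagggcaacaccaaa
Ezr: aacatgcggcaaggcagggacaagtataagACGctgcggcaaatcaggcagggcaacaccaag
Rdx: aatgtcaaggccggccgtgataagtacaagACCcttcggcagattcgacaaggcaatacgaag
The capitals mark the codon of threonine 558 of 577 residues in moesin, 567 of 586 in ezrin and 564 of 583 in radixin. Over the 63 bases, Msn and Ezr differed at 13 positions, and Rdx differed from each of them at 21. Over the aligned coding sequence Msn and Ezr were identical at 73.8% of bases, Msn and Rdx at 72.0%, and Ezr and Rdx at 70.0%. Nf2 matched the ERM genes at 61.5% to 63.2%. The longest run of identical bases shared by the transcripts was 32 bases, between Msn and Ezr. How the counting treated reads that fit more than one gene is not stated, so counts of these paralogs carry that uncertainty.

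The genes lie apart in the mouse genome (GRCm38). Msn spans chrX:96096042-96168552 on the plus strand, Ezr chr17:6738041-6782784 on the minus strand and Rdx chr9:52047150-52088737 on the plus strand. Nf2 spans chr11:4765845-4849536 on the minus strand and Slc9a3r1 chr11:115163341-115181181 on the plus strand. Ezr overlaps Sytl3 on the opposite strand, and Sytl3 had at most 24 reads in a library. Whether the counting used strand is not stated, so reads of that overlap cannot be told apart.

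Depth in the 22 libraries used ran from 18.4 M to 55.3 M counted reads. The targeted gene matched the labels: Gpt2 averaged 112 ± 36.3 CPM in knockout fasted, 60.4 ± 11.3 CPM in knockout fed, 696 ± 86.7 CPM in control fasted and 370 ± 51.9 CPM in control fed livers (SD, n = 6, 6, 5 and 5). CPM here are reads per M assigned reads, scaled by TMM factors that even out library composition. Summed levels of 7 hepatocyte markers were between 66480 and 149100 CPM in every library used. A library labelled control fasted replicate 4 went against its label, with 123 CPM of albumin (Alb), 7041 CPM of the kidney transcript Kap and 54.8 CPM of Gpt2. It was left out, as was the damaged file of control fed replicate 6, which held 965 complete lines of genes. Control fasted replicate 5, which was used, held a trace of kidney transcripts. It had 8.97 CPM of Kap and 23.6 CPM summed over 10 kidney markers, against at most 6.17 CPM in any other library used. The part of that trace in the member values was not tested.

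Levels of different genes are compared per length, in the deposited RPKM (reads per kilobase of gene per M reads). Over the 22 libraries Slc9a3r1 had a median of 76.7 RPKM (28.1 to 126.5) and Rdx a median of 37.7 RPKM (26.0 to 61.0). Nf2 had a median of 4.30 RPKM (3.41 to 6.86), Msn one of 2.24 RPKM (1.32 to 4.06) and Ezr one of 1.51 RPKM (1.11 to 5.33). The scaffold NHERF1 and radixin thus stood far above the other members. Slc9a3r1 exceeded Rdx, and Rdx exceeded Nf2, in 22 of 22 libraries, and Nf2 exceeded Msn in 21 of 22. The exception was knockout fed replicate 3, with 4.06 RPKM of Msn and 3.41 RPKM of Nf2. The order of Msn and Ezr varied more. Msn had the higher RPKM in 6 of 6 knockout fasted, 6 of 6 knockout fed, 3 of 5 control fasted and 2 of 5 control fed libraries. Because Msn was chosen on its genotype difference, these counts are a description.

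Radixin accounted for most of the ERM message. Of the summed RPKM of the 3 ERM genes, Rdx held 88.5 ± 2.43% in knockout fasted, 91.1 ± 1.56% in knockout fed, 90.9 ± 0.752% in control fasted and 89.5 ± 4.25% in control fed libraries (SD, n = 6, 6, 5 and 5). Msn held 7.74 ± 2.12% in knockout fasted, 5.90 ± 1.20% in knockout fed, 4.49 ± 0.301% in control fasted and 4.11 ± 0.766% in control fed libraries. Ezr held 3.73 ± 0.655% in knockout fasted, 3.04 ± 0.583% in knockout fed, 4.59 ± 0.811% in control fasted and 6.36 ± 4.10% in control fed libraries. By mean, moesin came before ezrin in both knockout groups and after it in both control groups. In control fasted libraries the means were close (4.49% and 4.59%), and Msn exceeded Ezr in 3 of 5. Msn was chosen on its genotype difference, so its shares and this order are a description. The Msn shares of the genotypes did not overlap in fasted livers (5.61% or more in every knockout and 4.80% or less in every control library) and overlapped in fed livers (4.19% to 7.93% in knockout and 3.10% to 5.20% in control libraries). In the left-out library the make-up was turned round, with 72.1% Ezr, 20.5% Rdx and 7.42% Msn.

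**Figure D1:**
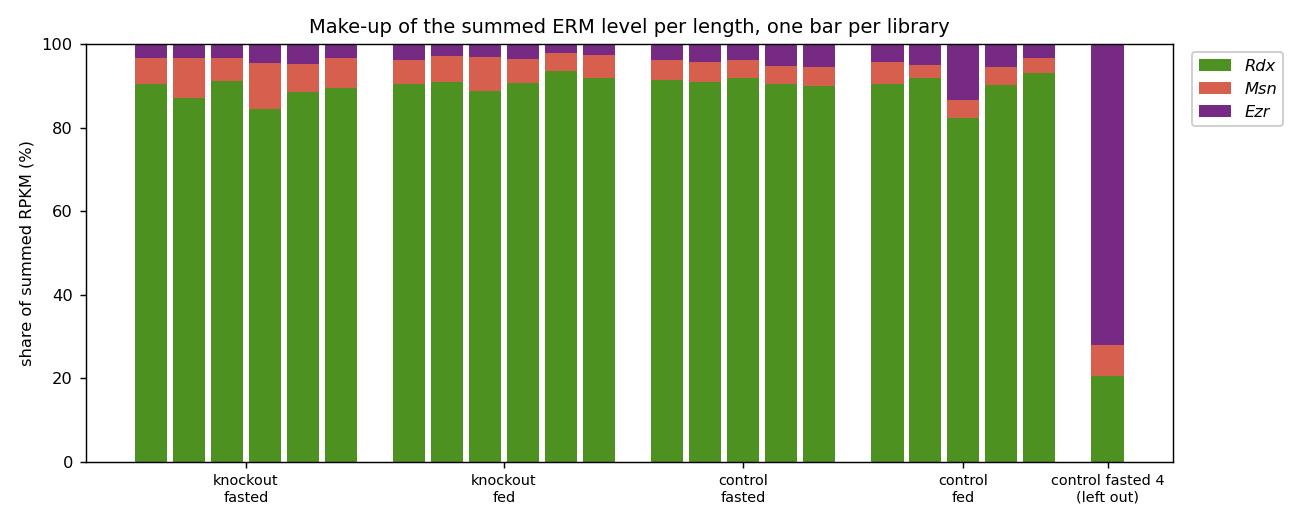
Share of the summed deposited RPKM of Rdx, Msn and Ezr (percent, vertical axis) in each library, 1 stacked bar per library, grouped as knockout fasted, knockout fed, control fasted and control fed, with the left-out library at the right. Rdx fills between 82.2% and 93.6% of every bar of the 22 libraries used, and Ezr fills 72.1% of the bar of the left-out library.

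Moesin was higher in knockout than in control livers in both feeding states. Msn had between 13.5 and 24.3 CPM in the 6 knockout fasted libraries, with a median of 17.6 CPM, against 11.6, 11.3, 9.82, 10.5 and 10.9 CPM in the 5 control fasted libraries. In fed livers it had between 16.0 and 27.5 CPM in the 6 knockout libraries, with a median of 18.0 CPM, against 12.2, 8.56, 10.1, 11.9 and 10.5 CPM in the 5 control libraries. Every knockout library lay above every control library of the same feeding state. The mean was 18.7 ± 4.65 CPM in knockout fasted and 10.8 ± 0.716 CPM in control fasted livers, and 19.3 ± 4.21 CPM in knockout fed and 10.7 ± 1.47 CPM in control fed livers (SD, n = 6, 5, 6 and 5). The knockout groups were also the more spread. The fitted log2 fold change, knockout over control, was 0.79 ± 0.17 in fasted and 0.85 ± 0.17 in fed livers (± SE), and 0.82 ± 0.12 averaged over feeding states, or 1.77-fold. Msn was chosen with its genotype difference known, so these values are a description and carry no test.

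Few genes passed the genotype test. By edgeR's quasi-likelihood test with an adjusted p (Benjamini-Hochberg over the 16757 genes) under 0.05, a gene was called in fasted livers and in fed livers in 0.00597% of genes each, and that gene was Gpt2 in both. Averaged over feeding states 0.0358% of genes were called. Of these 6 genes Gpt2 was lower and Mrc1, Cdh5, Kdr and Gh were higher in knockout livers. Msn was the other one, and nothing is read from that, because it was chosen on this difference. Gh had the widest error of the 6, with a log2 fold change of 7.77 ± 1.42 (SE), and its levels in single libraries are not given here. At an unadjusted p under 0.05 the counts were 672 genes in fasted, 1510 in fed and 1460 in averaged livers. If no gene differed, a share of about 0.05 of the 16757 genes would pass, and the 672 in fasted livers lie below that. Groups that did not overlap, with the knockout higher, were seen in 0.31% of genes in fasted and in 0.698% of genes in fed livers. Msn was among them in both states, again by its choice.

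Like Msn, the other 4 members were not called between genotypes in fasted or in fed livers alone. Those 4 did not pass the test averaged over feeding states either. Ezr had a log2 fold change of -0.29 ± 0.27 in fasted (adjusted p = 1, edgeR) and of -0.70 ± 0.27 in fed livers (adjusted p = 0.409). The fed value of Ezr rested on 1 library: without control fed replicate 3 it was -0.30 (adjusted p = 0.838). Rdx had -0.02 ± 0.11 in fasted (adjusted p = 1) and 0.35 ± 0.11 in fed livers (adjusted p = 0.285). Nf2 had -0.02 ± 0.13 in fasted (adjusted p = 1) and -0.39 ± 0.13 in fed livers (adjusted p = 0.319). Slc9a3r1 had -0.04 ± 0.14 in fasted (adjusted p = 1) and -0.24 ± 0.14 in fed livers (adjusted p = 0.657). All 4 overlapped between genotypes in each feeding state. The unadjusted 95% intervals in fed livers were -1.22 to -0.17 for Ezr, 0.14 to 0.57 for Rdx, -0.63 to -0.14 for Nf2 and -0.52 to 0.03 for Slc9a3r1, on the log2 scale, so modest differences remain possible.

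**Figure D2:**
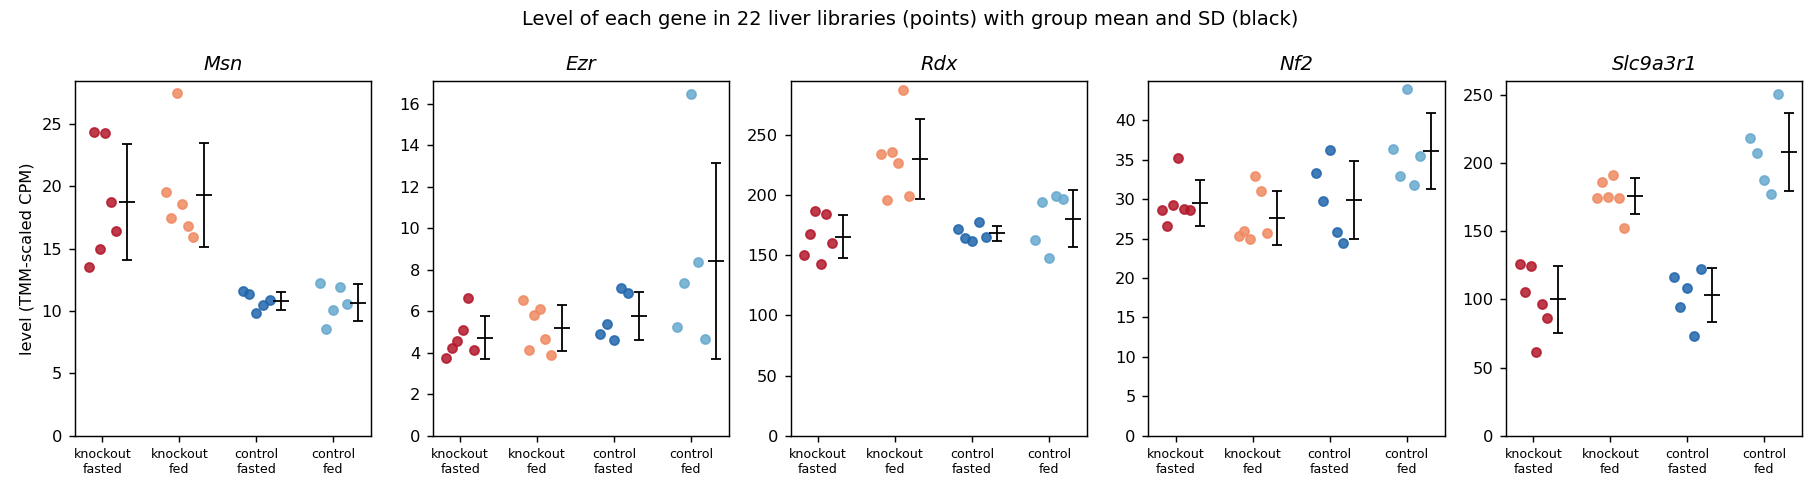
Level of each of the 5 genes (TMM-scaled CPM, vertical axes starting at 0, a scale for each gene) in the 22 libraries, with points for libraries and black marks for the group mean and SD, in the order knockout fasted, knockout fed, control fasted and control fed. Msn lies between 13.5 and 27.5 CPM in knockout libraries and between 8.56 and 12.2 CPM in control libraries, while Slc9a3r1 is lower in the fasted groups of both genotypes.

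Of 18 endothelial markers, 3 passed the averaged genotype test, all higher in knockout livers, against 0.0358% of all genes. In fasted or in fed livers alone 0 passed. The marker lists were drawn up with earlier results of these data known, so these counts are a description. Their summed level (none at 0 in any library used) was 403 to 615 CPM in knockout fasted, 451 to 649 CPM in knockout fed, 368 to 499 CPM in control fasted and 294 to 468 CPM in control fed libraries. The sums of the genotypes overlapped in both feeding states. Averaged over feeding states, 17 of 18 had a positive log2 fold change, with a median of 0.50 against 0.01 over all genes. The 3 that passed the test were the mannose receptor Mrc1 (0.76 ± 0.13, adjusted p = 0.013, edgeR), the junction cadherin Cdh5 (0.75 ± 0.14, adjusted p = 0.0288) and the VEGF receptor Kdr (0.59 ± 0.11, adjusted p = 0.0288). These calls depended on the fit. Of 8 alternatives over the same libraries, Mrc1 passed in 6, and Cdh5 and Kdr in 5 each. With title-number clusters as a block none of the 3 passed (adjusted p = 0.145 each, limma voom). That fit changed the method as well as adding the block, whose within-cluster correlation was -0.013. With voom weights none passed (adjusted p = 0.0584 for Mrc1, 0.0801 for Cdh5 and 0.0873 for Kdr). With the left-out library put back none passed either (adjusted p = 0.222 to 0.501, edgeR). With each of the 22 libraries left out in turn Mrc1 passed 22 times, Cdh5 12 times and Kdr 11 times. In these bulk libraries more cells of a type and more RNA per cell cannot be told apart. The part of these cells in the Msn values was not tested.

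The endothelial sum was itself higher by mean in knockout livers, 541 against 423 CPM in fasted and 522 against 373 CPM in fed livers. Dividing Msn by it therefore had to narrow the Msn gap. Msn was also chosen on that gap, so the ratios below are a description. Msn had 2.94 to 4.03 CPM per 100 CPM of the 18 endothelial markers in knockout fasted libraries, with a mean of 3.44 ± 0.451, and 2.27 to 2.96 in control fasted libraries, with a mean of 2.58 ± 0.282 (SD, n = 6 and 5). In fed livers it had 3.28 to 4.23 in knockout libraries, with a mean of 3.67 ± 0.345, and 2.48 to 3.45 in control libraries, with a mean of 2.89 ± 0.378 (SD, n = 6 and 5). On this scale the genotypes overlapped in both feeding states. Per 100 CPM of the 13 macrophage markers, Msn had 4.60 to 8.12 CPM in knockout fasted and 4.37 to 5.55 CPM in control fasted libraries, which overlapped. In fed livers that ratio was 5.65 to 6.94 in knockout and 3.27 to 5.32 in control libraries, which did not overlap. The knockout fed library with the highest Msn level, replicate 3 with 27.5 CPM, also had the highest endothelial sum of the 22, 649 CPM. Its macrophage sum (403 CPM) and hepatocyte sum (125300 CPM) were likewise the highest of its group.

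**Figure D3:**
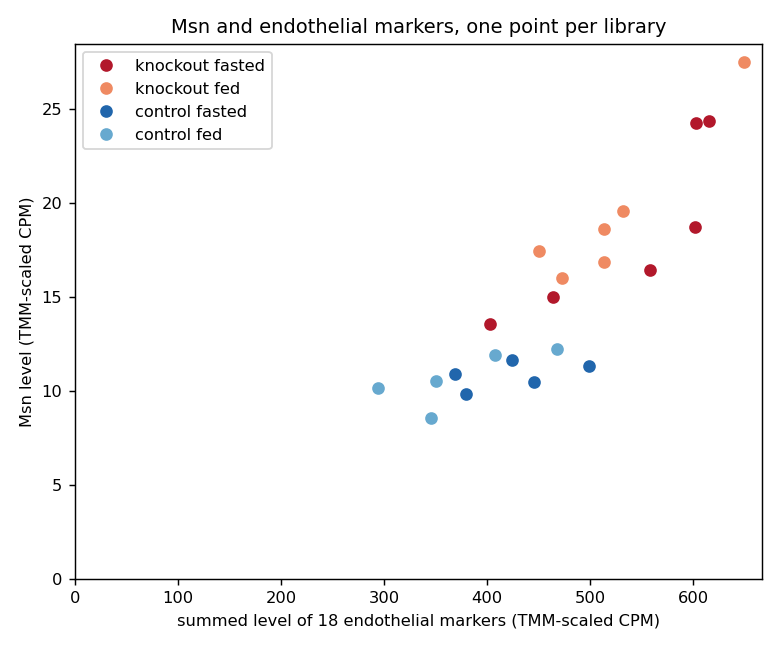
Msn level (TMM-scaled CPM, vertical axis) against the summed level of 18 endothelial markers (TMM-scaled CPM, horizontal axis), 1 point per library, coloured by group. Libraries with a larger endothelial sum tend to have more Msn. Knockout points lie above control points of a similar sum, but Msn was chosen on its genotype difference.

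Macrophage markers showed a like pattern without a call. The 13 genes, none at 0, summed to 210 to 411 CPM in knockout fasted, 268 to 403 CPM in knockout fed, 196 to 240 CPM in control fasted and 214 to 323 CPM in control fed libraries. All 13 had a positive averaged genotype value, with a median of 0.51, and 0 passed the test. The complement gene C1qc came nearest (0.51 ± 0.10, adjusted p = 0.0597, edgeR). Of the leukocyte markers, 10 of 11 were positive with a median of 0.19 and 0 passed, and their sums of 25.8 to 54.1 CPM in knockout fasted, 26.0 to 52.4 CPM in knockout fed, 24.9 to 36.7 CPM in control fasted and 29.5 to 43.3 CPM in control fed libraries overlapped. The T cell gene Cd3g and the cytotoxic cell gene Nkg7 were each at 0 in 7 of the 22 libraries. Of the stellate cell markers, 10 of 12 were positive with a median of 0.24 and 0 passed. The part of these cells in the Msn values was not tested.

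Several endothelial genes were among those whose levels were most like that of Msn. Over the 22 libraries and 8903 genes compared, the 8 highest Pearson correlations of log2 CPM were those of Clec14a (0.85), Oit3 (0.84), C1qc, Cdh5 and Itga9 (0.83 each), Mrc1 (0.82), Gpr182 (0.80) and Kdr (0.79). Of these, Oit3, Cdh5, Mrc1, Gpr182 and Kdr stand in the endothelial marker list and C1qc in the macrophage list. After group means were subtracted, so that only differences within groups counted, the first were Gpr182 (0.81) and Stab2 (0.80), a scavenger receptor of sinusoidal endothelium. Then came Rin2 (0.78), Sparc and Pwwp2a (0.77 each), and Dnajc3, Cstf3 and Oit3 (0.75 each). Only Gpr182 and Oit3 were among the first 8 both ways. The libraries share their depth and tissue make-up in such a correlation, and it is given as a description. Without that subtraction it also holds the genotype difference on which Msn was chosen. With Msn itself Ezr correlated at -0.33, Rdx at 0.30, Nf2 at -0.42 and Slc9a3r1 at -0.18, so none of the other members came near those values.

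Moesin did not pass a fasting test in either genotype. The log2 fold change of Msn, fasted over fed, was -0.04 ± 0.16 in knockout livers (95% interval -0.36 to 0.27, adjusted p = 0.967, edgeR) and 0.02 ± 0.18 in control livers (95% interval -0.33 to 0.37, adjusted p = 0.977). Its interaction of genotype and fasting was -0.06 ± 0.24 (95% interval -0.54 to 0.41, adjusted p = 1), which bounds how far the genotype gap may differ between feeding states. Fasted and fed libraries of the same genotype overlapped in Msn level.

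NHERF1 was the member that fell with fasting, in both genotypes. Slc9a3r1 had between 61.4 and 126 CPM in the 6 knockout fasted libraries, with a median of 101 CPM, against 153 to 192 CPM in the 6 knockout fed libraries, with a median of 175 CPM. In control livers it had 117, 94.7, 108, 73.1 and 123 CPM in the fasted and 218, 207, 187, 177 and 251 CPM in the fed libraries. No fasted library reached a fed library of its genotype. The log2 fold change was -0.81 ± 0.14 in knockout (adjusted p = 9.84e-05, edgeR) and -1.01 ± 0.15 in control livers (adjusted p = 1.54e-05), and -0.91 ± 0.10 averaged over genotypes (adjusted p = 2.84e-08), which is a level of 0.531 of that in fed livers. The fall did not differ detectably between genotypes (interaction 0.20 ± 0.20, 95% interval -0.20 to 0.60, adjusted p = 1).

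Radixin fell with fasting in knockout livers. Rdx had between 143 and 186 CPM in the 6 knockout fasted libraries, with a median of 164 CPM, against 196 to 287 CPM in the 6 knockout fed libraries, with a median of 230 CPM. In control livers it had 172, 164, 162, 177 and 165 CPM in the fasted and 163, 194, 147, 199 and 197 CPM in the fed libraries. The knockout groups did not overlap and the control groups did. The log2 fold change was -0.48 ± 0.10 in knockout (adjusted p = 0.00258, edgeR) and -0.10 ± 0.11 in control livers (adjusted p = 0.73), and -0.29 ± 0.08 averaged over genotypes (adjusted p = 0.00794). The difference between those falls was not established: the interaction was -0.38 ± 0.15 with an unadjusted p of 0.0201 and an adjusted p of 0.997. In the fit that kept the left-out library, the fall in knockout livers was -0.47 with an adjusted p of 0.054.

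Merlin and ezrin did not pass any fasting test. Nf2 had between 26.6 and 35.2 CPM in knockout fasted libraries, with a median of 28.7 CPM, against 24.9 to 32.9 CPM in knockout fed libraries, with a median of 25.8 CPM. In control livers it had 33.4, 29.7, 36.3, 25.8 and 24.4 CPM in the fasted and 36.3, 33.0, 44.0, 31.8 and 35.4 CPM in the fed libraries. The groups overlapped in both genotypes, and the log2 fold change was 0.10 ± 0.12 in knockout (adjusted p = 0.839, edgeR) and -0.27 ± 0.13 in control livers (adjusted p = 0.251). The interaction of Nf2 was 0.37 ± 0.18 (adjusted p = 1).

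Ezrin was the member with the fewest reads per length by median, and the one whose values depended most on a single library. Ezr had between 3.73 and 6.62 CPM in knockout fasted libraries, with a median of 4.40 CPM, against 3.89 to 6.55 CPM in knockout fed libraries, with a median of 5.24 CPM. In control livers it had 4.89, 5.38, 4.60, 7.15 and 6.89 CPM in the fasted and 5.26, 7.38, 16.5, 8.37 and 4.68 CPM in the fed libraries. The value of 16.5 CPM belonged to control fed replicate 3, and the groups overlapped. That library also had the highest sum of 9 bile duct markers, 79.2 CPM, against 37.7 to 68.0 CPM in the other 21 libraries, and the part of those cells in the Ezr value was not tested. Of these markers Cldn4 was at 0 in 11 of the 22 libraries. The log2 fold change of Ezr with fasting was -0.13 ± 0.26 in knockout (adjusted p = 0.917, edgeR) and -0.54 ± 0.28 in control livers (adjusted p = 0.288), and the control value was -0.15 (adjusted p = 0.856) without that library.

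**Figure D4:**
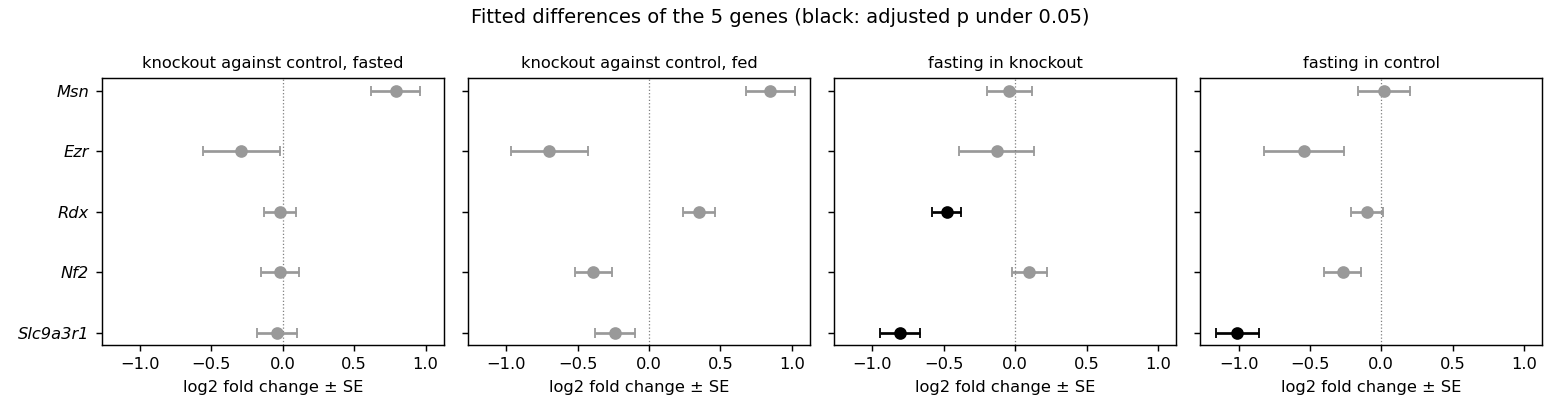
Fitted log2 fold change with its SE (horizontal axes) of the 5 genes in 4 comparisons, namely knockout over control in fasted and in fed livers, and fasted over fed in knockout and in control livers. Black points passed an adjusted p of 0.05, which held for Rdx and Slc9a3r1 with fasting in knockout livers (-0.48 and -0.81) and for Slc9a3r1 in control livers (-1.01).

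Against all genes, calls with fasting were common. Of the 16757 genes 6.13% were called in knockout livers (3.25% lower in fasted livers), 8.12% in control livers (4.13% lower) and 14.3% averaged over genotypes (7.26% lower). Among the 5 members, 2 of 5 were called in knockout livers, 1 of 5 in control livers and 2 of 5 averaged over genotypes, all lower. Fasted levels wholly below the fed levels were seen in 2.14% of genes in knockout livers, Rdx and Slc9a3r1 among them, and in 4.03% in control livers, Slc9a3r1 among them. Of the genes called in knockout livers 47.0% were higher in fasted livers, and 36.7% were when library totals replaced the TMM factors. The calls of Slc9a3r1 and Rdx were made with either scaling. These comparisons share libraries with each other.

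The genes most like Slc9a3r1 over the 22 libraries were Srebf1, a lipogenic transcription factor, Tapbp and the carbonic anhydrase Car3 (0.95 each) and Klhdc7a (0.94). Tapbp and Car3 were still among its first 4 after group means were subtracted (0.83 and 0.82). Rdx was most like Map3k2 (0.86) and Fgd4 (0.84), and Map3k2 was among the first both ways. The highest correlations of Nf2 and Ezr were lower, 0.74 with Txndc11 for Nf2 and 0.74 with Lrrc45 for Ezr. Between the members, the highest was 0.52 for Rdx and Slc9a3r1, and it was 0.21 after group means were subtracted.

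The upstream regulators of the ERM proteins are the RhoA arm, the kinases that phosphorylate the conserved threonine and the phosphatase that removes the phosphate. Of 13 such genes 0 passed a genotype test, and the averaged genotype median was 0.14. Ppp1r12a, the targeting subunit of myosin phosphatase, came nearest (0.29 ± 0.10, adjusted p = 0.386, edgeR). With fasting averaged over genotypes 2 of 13 passed, both lower, against 14.3% of all genes called and 7.26% lower. They were the GTPase regulator Arhgdia (-0.46 ± 0.09, adjusted p = 0.000606) and the kinase Rock1 (-0.30 ± 0.11, adjusted p = 0.0488). Rock1 passed in 4 of the 8 alternative fits over the same libraries, with an adjusted p between 0.0395 and 0.0795.

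Membrane proteins that ERM proteins hold are the next layer. Of 12 anchors, among them Cd44, Icam1 and Podxl, 10 had a positive averaged genotype value and 0 passed the test. Their median was 0.40 against 0.01 over all genes. The SE of single anchors ran from 0.07 to 1.1, so that median rests partly on imprecise values. Cd93, a receptor of endothelium that binds moesin in human cells, had 0.66 ± 0.23 (adjusted p = 0.386, edgeR) and the sialomucin Podxl, also of endothelium, 0.52 ± 0.19 (adjusted p = 0.399). With fasting averaged over genotypes 1 of 12 passed, against 14.3% of all genes. It was Cd93, higher in fasted livers by 0.87 ± 0.23 (adjusted p = 0.008, edgeR).

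Some partners of NHERF1 and of the canaliculus rose with fasting, some fell, and most did not pass. Of 12 NHERF relatives and PDZ ligands 9 passed the filter on low counts, and 0 of them passed a genotype test. With fasting averaged over genotypes 1 rose and 1 fell, against 14.3% of all genes called. The purine receptor P2ry1 was higher by 0.87 ± 0.21 (adjusted p = 0.00299, edgeR) and the organic anion carrier Slco1a1 had -0.72 ± 0.16 (adjusted p = 0.0023). The sister scaffold Slc9a3r2 had -0.14 ± 0.13 (adjusted p = 0.584). Of 14 canalicular genes 0 passed a genotype test, and 1 rose and 3 fell with fasting, against the same 14.3%. The phospholipid exporter Abcb4 rose by 1.46 ± 0.09 (adjusted p = 3.94e-14), and the bile salt pump Abcb11 had -1.23 ± 0.09 (adjusted p = 4.73e-12). The flippase Atp8b1 had -0.51 ± 0.11 (adjusted p = 0.000751) and the peptidase Dpp4 -0.31 ± 0.09 (adjusted p = 0.0106). Abcc2, the exporter that radixin holds at the canaliculus, had 0.11 ± 0.08 (adjusted p = 0.469).

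Downstream of merlin, 20 Hippo pathway genes held 0 genotype calls and 1 fasting call, the co-repressor Vgll4 (-0.31 ± 0.11, adjusted p = 0.0468, edgeR), which passed in 5 of 8 alternative fits. Of 10 tested target genes of the Hippo effectors YAP and TAZ, 0 passed a genotype test and 1 passed with fasting. This was Ccn1, with -0.73 ± 0.21 (adjusted p = 0.0135), while Ccn2, the other classical target, had 0.70 ± 0.25 (adjusted p = 0.0557). The medians of both lists with fasting were 0.03 and -0.05, against 0.01 over all genes. Averaged over genotypes, 14.3% of all genes were called with fasting.

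Most of the other FERM domain, cortical actin and microvillus genes did not pass the fasting test. Of 23 other FERM domain genes 0 passed a genotype test, with an averaged median of 0.09, and 2 rose and 4 fell with fasting averaged over genotypes. Among them were the membrane skeleton protein Epb41 (0.62 ± 0.08, adjusted p = 6.17e-07, edgeR), the ubiquitin ligase Mylip, which acts on the LDL receptor (0.71 ± 0.15, adjusted p = 0.000515), the phosphatase Ptpn3 (-0.59 ± 0.10, adjusted p = 5.66e-05) and kindlin-2, Fermt2 (-0.47 ± 0.10, adjusted p = 0.000624). Of 16 cortical actin genes 1 rose and 3 fell. Actn1 had -0.51 ± 0.11 (adjusted p = 0.00114), Actb -0.30 ± 0.09 (adjusted p = 0.02) and Cfl1 -0.25 ± 0.08 (adjusted p = 0.027), and Actn4 had 0.28 ± 0.09 (adjusted p = 0.0256). Of 9 tested microvillus genes 2 fell with fasting, among them the motor Myo6 (-0.33 ± 0.09, adjusted p = 0.00599). The actin and microvillus lists also had 0 genotype calls. Across the 9 lists the share called with fasting is to be read against the 14.3% of all genes.

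**Figure D5:**
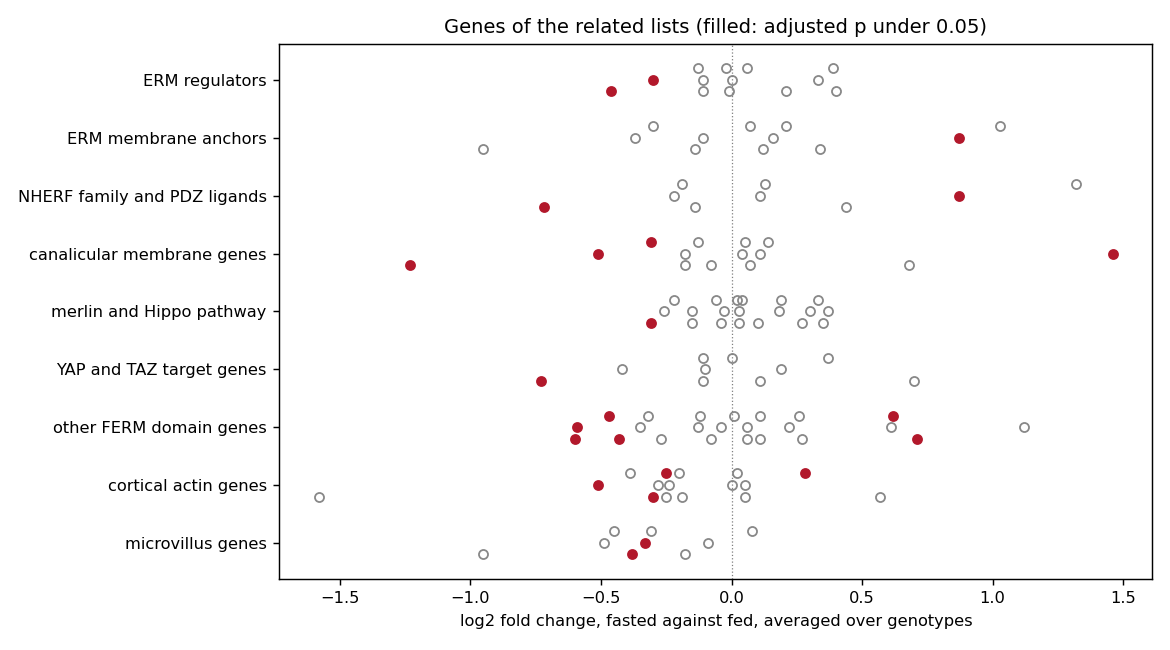
Log2 fold change with fasting averaged over genotypes (horizontal axis) of the tested genes in 9 lists around the ERM genes, 1 point per gene and 1 row per list. Filled points passed an adjusted p of 0.05, and the outermost of them are Abcb4 (1.46) and Abcb11 (-1.23) among the canalicular genes.

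The left-out library gives the members in a tissue with kidney transcripts, as single values without a replicate. In RPKM it had 13.6 for Msn, 132 for Ezr, 37.5 for Rdx, 17.1 for Nf2 and 105 for Slc9a3r1. Ezr, Msn and Nf2 were above their range in the 22 libraries, and Rdx and Slc9a3r1 were within it. With 132 RPKM, Ezr was the highest of the 5 genes there and the lowest by median in the libraries used.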

How the data were processed

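Polyadenylated RNA of mouse liver was sequenced (oligo-dT, per the labels). Per the submitters' processing notes, the tools were bcl2fastq, STAR 2.5.1a and Subread with featureCounts 1.4.6-p5, on GRCm38, and the authors deposited a read count, a CPM and an RPKM per gene and library. The deposited counts entered every test. The deposited CPM, per the file headers, were counts per M assigned reads, and the deposited RPKM divided these by the gene length in kilobases and served for levels between genes. Symbols from GENCODE M21 matched 97.3% of 41388 genes. Control fed replicate 6 (damaged) and control fasted replicate 4 (kidney transcripts) were left out. The other 22 libraries, at 18.4 M to 55.3 M reads, entered 1 robust quasi-likelihood fit in edgeR 4.0.16 (R 4.3.3) with TMM factors and filterByExpr (minimum count 10), without covariates. A call is an adjusted p (Benjamini-Hochberg, 16757 genes) under 0.05, intervals are 1.96 SE, and logarithms of CPM used a prior count of 2. The fit was tested on simulated data. Named genes were the 5 members, Gpt2, Alb and Kap, up to 4 genes of smallest p per list and contrast, and the most correlated genes (8 for Msn, 4 for each other member). Abcc2, Slc9a3r2 and the genes called between genotypes were named outside that rule, after their values were seen. A few list genes are not reported here. The members and lists were chosen with earlier results of these data known, the genotype difference of Msn among them. Alternatives were RLE factors, library totals, no low-count filter, a floor of 1 on mean CPM, DESeq2 1.42.0, voom of limma 3.58.1 with weights per library, fits of the compared groups alone, removal of mitochondrial and abundant genes, a random block of libraries with close title numbers, all 23 intact libraries, TPM for RPKM, and each library left out.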

Additional observations from a re-analysis of the deposited data

Results flagged for a closer look

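Msn in knockout fed replicate 3, at 27.5 CPM, stood apart from the other 5 libraries of its group, which had 16.0 to 19.5 CPM. Without it the fed genotype difference was still positive, as it was without any other library (0.73 to 0.91 on the log2 scale). Msn was chosen on its genotype difference in these libraries, so this range is a description and no test of it. Nf2 in knockout fasted replicate 4, at 35.2 CPM, stood apart from 26.6 to 29.3 CPM in its group. A sample this far from its group is seen by chance in about 1 of 20 groups, and 20 groups were looked at, with these 2 found.

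In the library labelled control fasted replicate 4, which entered no comparison, Msn (13.6 RPKM), Ezr (132 RPKM) and Nf2 (17.1 RPKM) were above every one of the 22 libraries used, whose highest values were 4.06, 5.33 and 6.86 RPKM.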

How the results depend on the processing

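Of the list genes named as called with fasting, all but Rock1, Vgll4 and Actn4 passed in each of 8 alternatives over the 22 libraries. Without single libraries Rock1 passed 7, Vgll4 6, Cfl1 16 and Actn4 18 of 22 times. With 23 libraries Arhgdia, Rock1, Abcb4, Abcb11, Vgll4, Ccn1, Actb, Cfl1, Actn4 and Myo6 did not pass. The calls of Slc9a3r1 with fasting in both genotypes, and of Rdx with fasting in knockout livers and averaged over genotypes, held in every alternative over the 22 libraries and without each library in turn. The Msn genotype values lay between 0.74 and 0.88 over the 22-library alternatives and between 0.70 and 0.91 without each library. Because Msn was chosen on its genotype difference, these ranges are a description. With all 23 libraries, Msn was 0.08 in fasted livers and 0.47 averaged, Rdx with fasting in knockout livers was -0.47 (adjusted p = 0.054, edgeR), and these uncalled values changed sign: Rdx in the fasted genotype contrast 0.06, Ezr with fasting in control livers 2.53 and averaged 1.20, Nf2 likewise 0.03 and 0.06, Msn with fasting averaged 0.34, the Ezr interaction -2.66, and Podxl in the averaged genotype contrast -0.58. Msn with fasting in control livers was 0.00 with library totals, and Nf2 in the fasted genotype contrast was 0.00 with title-number clusters as a block. Without single libraries, values near 0 changed sign. Msn with fasting was -0.13 to 0.08 in knockout, -0.05 to 0.08 in control and -0.06 to 0.05 in averaged livers, with an interaction of -0.16 to 0.06. In the fasted genotype contrast Nf2 was -0.08 to 0.06, Slc9a3r1 -0.15 to 0.06 and Rdx -0.06 to 0.01.

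The number of genes called between fed genotypes, 1 by edgeR, was 5 with library totals, 14 without a filter, 68 with DESeq2, 2 without mitochondrial and abundant genes and 0 with 23 libraries. Averaged over feeding states, 6 became 12 with library totals, 12 without a filter, 3 at a mean CPM of at least 1, 37 with DESeq2, 2 with voom weights, 2 with the block and 1 with 23 libraries. In fasted livers 1 became 3 with DESeq2 and 0 with 23 libraries, and the interaction 1 became 6 with DESeq2 and 0 with 23 libraries. With 23 libraries the fasting counts were 379 in knockout, 805 in control and 1529 in averaged livers, against 1028, 1360 and 2404. Without single libraries, the counts were 1 to 13 between fed genotypes, 1 to 1 between fasted genotypes and 3 to 15 averaged over feeding states. For fasting they were 849 to 1075 in knockout, 1088 to 1434 in control and 2193 to 2458 in averaged livers, and 0 to 1 for the interaction. The causes of these shifts were not tested. No paired analysis was possible because the labels carry no replicate numbers shared by the groups, the numbers used here being accession order. Runs of close title numbers, whose meaning is not stated, entered only as the random block given above. That block was fitted by voom, with a within-cluster correlation of -0.013.

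At these depths Ezr, the lowest member, had the widest errors. Bulk RNA does not show in which cells a transcript lay, protein and phosphorylation were not measured, and animal identity and strand setting were not given in the sources used here.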
